A study of Homo sapiens with 15 samples.

Results

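The pentose phosphate pathway branches from glycolysis at glucose 6-phosphate. Its oxidative branch yields NADPH, the reductant that cells use to keep glutathione reduced and to build fatty acids, and releases ribulose 5-phosphate. Its non-oxidative branch interconverts sugar phosphates reversibly, so that pentoses can be returned to glycolysis or drawn from it, and ribose 5-phosphate leaves the pathway as phosphoribosyl pyrophosphate, the ribose donor for nucleotides. The 9 enzymes examined here were taken by name: H6PD, PGLS and PGD of the oxidative branch, RPIA, RPE, TKT, TKTL1 and TALDO1 of the non-oxidative branch, and PRPS1, which makes phosphoribosyl pyrophosphate. They were chosen with earlier results of these data known. Every array probe annotated with a RefSeq transcript of one of them was used, which gave 10 probes for 9 genes out of 42405 non-control probes and 19483 genes with a RefSeq symbol on the array.

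The samples were total RNA from PE/CA-PJ41, an immortalised human oral squamous cell carcinoma line, with or without a stably transfected pCMV6-Neo plasmid holding a cytoglobin insert. Cells labelled CYGB+ carried human cytoglobin cDNA in this plasmid, and cells labelled NCE, per the labels, the empty vector. The study's own text in places calls this control untransfected, and which applies to these samples was not settled here. Both lines were kept in supplemented RPMI1640 for 24 h before RNA was extracted. Stable clones were picked with cloning rings in G418 sulfate, and per the study's methods the CYGB+ RNA came from a single clone, LST421, so that an effect of the clone and an effect of cytoglobin, a haem globin, cannot be told apart. RNA was extracted on 3 occasions from each line and hybridised to 15 Agilent arrays, 3 arrays for each NCE replicate and 2 for each CYGB+ replicate. The replicates are extractions of the same lines, so p-values measure the spread between extractions. Levels are given as the log2 of the quantile-normalised green signal, averaged over the arrays of a replicate, and differences as CYGB+ minus NCE on that scale.

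A few properties of the arrays bear on the results below. The CYGB probe did not separate the groups: its log2 level was 12.85, 13.16 and 12.96 in NCE and 12.37, 13.42 and 13.01 in CYGB+, a difference of -0.05 ± 0.27 (SE, n = 3 per group; limma adjusted p = 0.915). The part of the transcript that this probe reads is not given in the sources used here, so it is no check of the cDNA, and each direction below is that of the labels. The paper describes the parent line as not expressing cytoglobin. The probe was nevertheless well above background on all 9 NCE arrays, at a mean log2 level of 12.99, and the source of this signal was not tested. Of the 15 arrays, 8 of the 9 NCE arrays were on 1 slide, and the remaining NCE array, a repeat of replicate 1, shared the other slide with all 6 CYGB+ arrays. The first array of CYGB+ replicate 1 stood apart, with a median correlation of 0.917 with its group against 0.967 to 0.989 for the other 14. Between 49.0% and 57.3% of probes were well above background per array. All 9 squamous epithelial markers examined (KRT5, KRT14, KRT6A, KRT17, TP63, SFN, CDH1, DSG3 and EPCAM) were well above background on every array, with a mean log2 level of 12.63 to 12.74 in NCE and 12.54 to 12.88 in CYGB+. This mean joins differences of both signs, from -0.57 for EPCAM (limma adjusted p = 0.075) to 0.66 for KRT14 (0.113). None of the 9 passed the test. Of 6 fibroblast markers only COL1A2 was well above background on every array, and it fell by 2.53 in CYGB+ (adjusted p = 0.00105). COL1A1 was so on 7 of 9 NCE and 6 of 6 CYGB+ arrays, with a difference of 0.23 (adjusted p = 0.725), while COL3A1, LUM and PDGFRB were well above background on 0 of 15 arrays. For DCN, probe A_33_P3382856 was well above background on 1 NCE and 0 CYGB+ arrays, and probe A_23_P64873 on 0 NCE and 1 CYGB+ arrays. Of 5 leukocyte markers, CD14 and CD68, which are not restricted to leukocytes, were above background on every array, and neither passed the test. The mean log2 level over the fibroblast list was 4.004 to 4.46 in NCE and 3.52 to 3.77 in CYGB+, and its part in the results was not tested.

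The promoters of 3 members are shown because PGD and TALDO1 carry the differences reported below and RPE shares a motif with PGD. Each run is the 250 bases before the RefSeq start site on the plus strand of GRCh38.p14, at chr1:10398814-10399063 for PGD, chr2:210002388-210002637 for RPE and chr11:747214-747463 for TALDO1. Capitals mark matches, on either strand, to TGACNNNGC, the core of the antioxidant response element, to CACGTG, the E-box, or to CCAAT, the CCAAT box.
PGD: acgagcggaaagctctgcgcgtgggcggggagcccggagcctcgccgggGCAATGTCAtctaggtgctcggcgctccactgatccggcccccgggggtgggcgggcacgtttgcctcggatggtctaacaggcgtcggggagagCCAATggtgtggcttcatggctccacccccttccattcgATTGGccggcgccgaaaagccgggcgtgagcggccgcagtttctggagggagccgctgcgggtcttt
RPE: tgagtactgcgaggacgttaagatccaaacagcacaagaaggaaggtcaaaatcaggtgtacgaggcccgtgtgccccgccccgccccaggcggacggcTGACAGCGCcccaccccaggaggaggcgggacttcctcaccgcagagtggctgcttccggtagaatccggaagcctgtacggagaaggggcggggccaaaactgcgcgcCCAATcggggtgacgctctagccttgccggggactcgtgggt
TALDO1: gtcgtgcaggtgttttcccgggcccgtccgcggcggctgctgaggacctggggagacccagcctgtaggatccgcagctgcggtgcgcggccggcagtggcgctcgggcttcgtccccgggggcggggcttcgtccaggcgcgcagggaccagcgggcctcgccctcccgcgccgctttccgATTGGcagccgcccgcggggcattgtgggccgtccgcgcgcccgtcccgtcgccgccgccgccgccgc
The antioxidant response element core lay 201 bases before the start in PGD, on the minus strand, and 151 bases before it in RPE, on the plus strand. Over windows that also took in the first 50 transcribed bases, 2 of the 9 members held this core, against 13.35% of 35116 RefSeq promoters. The CCAAT box was in 6 of 9 members, against 34.61% of promoters, with 2 copies upstream of PGD and 1 each upstream of RPE and TALDO1. No member held the E-box, which was in 7.26% of promoters. None of the matches in the printed runs overlapped another motif. These are matches of letters, and binding was not measured.

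Among the 7 members that could be tested, PGD was higher and TALDO1 lower in CYGB+, each with no overlap between the groups, and PGLS, RPIA, RPE, TKT and PRPS1 did not pass the test. H6PD and TKTL1 were too close to background to be tested. The oxidative and non-oxidative branches thus each held 1 called gene, in opposite directions. The 2 called of 7 tested (28.6%) stood against 12.2% of the 12156 genes tested across the array, and by direction against 6.11% higher and 6.07% lower. Because the members were chosen with earlier results of these data known, these shares are a description and no test of the pathway. The median log2 difference was 0.15 over the 7 members and 0.0049 over all genes. A bulk RNA signal of this kind does not tell fewer expressing cells apart from less RNA per cell.

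**Figure D1:**
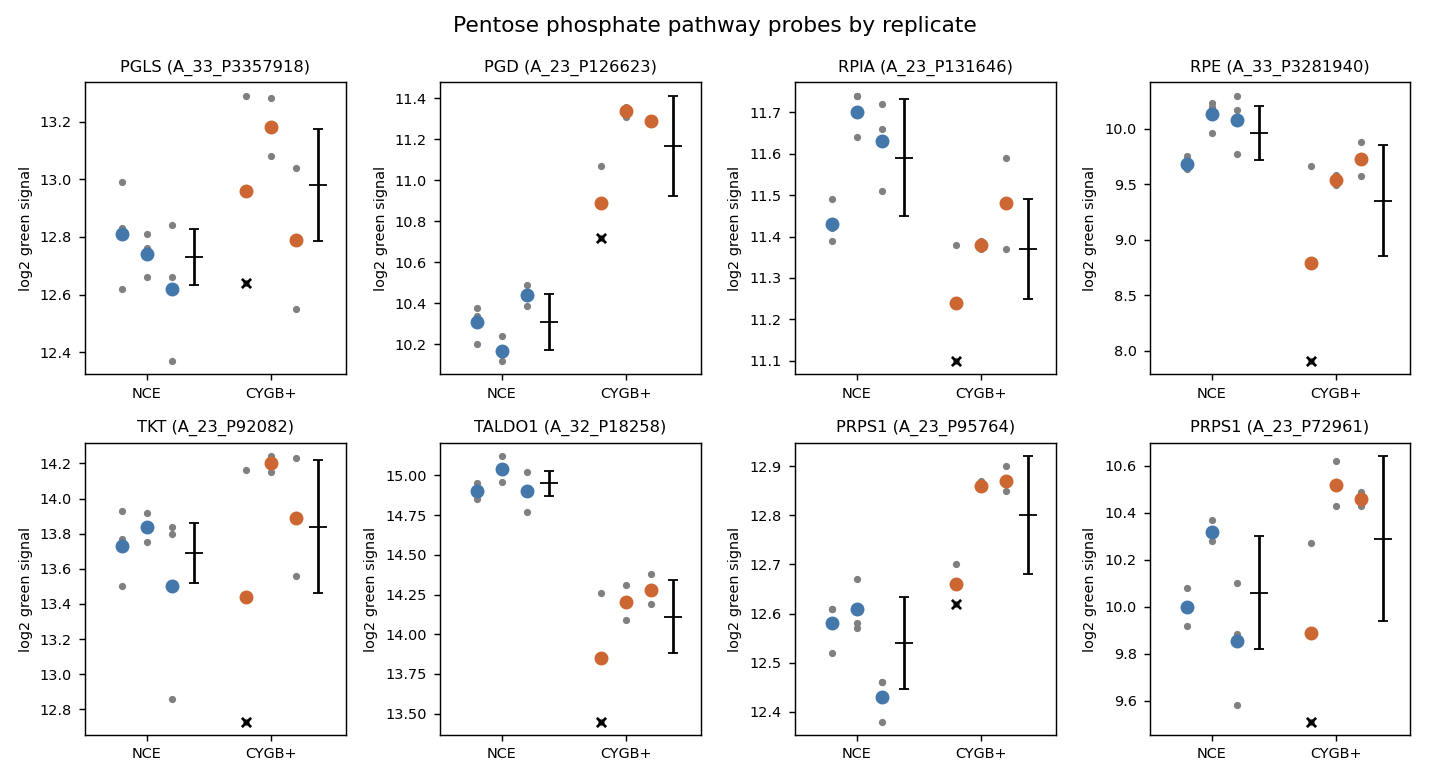
Log2 green signal of the 8 tested member probes in NCE and CYGB+ cells, with each panel on its own axis. Grey points are single arrays, coloured points the 3 replicates of a group, bars the group mean ± SD over replicates, and the cross marks the first array of CYGB+ replicate 1. For PGD the CYGB+ arrays sit between 10.72 and 11.36, all above the NCE arrays, and for TALDO1 between 13.45 and 14.38, all below them.

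PGD encodes 6-phosphogluconate dehydrogenase, which releases carbon dioxide and NADPH to form ribulose 5-phosphate. Its log2 level was 10.31, 10.17 and 10.44 in NCE replicates 1 to 3 and 10.89, 11.34 and 11.29 in CYGB+ replicates 1 to 3. The lowest CYGB+ replicate lay above the highest NCE replicate, and replicate 1 was the lowest of the CYGB+ group. At the level of single arrays NCE spanned 10.12 to 10.49 with a median of 10.34, and CYGB+ 10.72 to 11.36 with a median of 11.29. The group means were 10.31 ± 0.14 in NCE and 11.17 ± 0.24 in CYGB+ (SD, n = 3 each). The difference of 0.87 ± 0.18 (SE) corresponds to a 1.83-fold higher signal in CYGB+, with a 95% interval of 1.37 to 2.43-fold (limma adjusted p = 0.023). Fitted with limma to single arrays, with the replicate as a random block, the difference was 0.87 ± 0.12 (SE; adjusted p = 7.98e-05). Adding slide as a covariate to that array-level fit gave 0.99 ± 0.21 (adjusted p = 0.0166). The slide term there rests on the 1 NCE array that shared a slide with CYGB+. Arrays of a replicate are repeats of the same extraction, and the array-level fits took a single correlation of 0.238 between them for all probes. For a probe whose arrays lie closer within a replicate, the array-level p-values would be too small, and this was not tested for PGD. On the slide that holds both groups alone the difference was 0.97 ± 0.33, with 1 NCE replicate. NCE replicate 1 read 10.38 and 10.34 on the first slide and 10.20 on the other. The call was lost on leaving out NCE replicate 1, 2 or 3 (adjusted p = 0.0679, 0.105 and 0.064) or CYGB+ replicate 2 or 3 (0.0589 and 0.0628), with differences of 0.79 to 0.94.

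Across the 6 replicate levels, the named probes outside the pathway that ran most like PGD, of 15359 searched, were those of BBX, an HMG-box DNA-binding protein (Pearson r = 0.997), CYTOR, a long non-coding RNA (r = 0.994), and MAP6D1 (r = 0.993). The 6 points fall into the 2 groups, so each r largely restates a shared group difference and is given as a description. CYTOR was 12.56, 12.56 and 12.71 in NCE and 13.03, 13.32 and 13.37 in CYGB+, a difference of 0.63 ± 0.16 (adjusted p = 0.0437). BBX differed by 0.37 ± 0.14 (adjusted p = 0.131) and MAP6D1 by 0.25 ± 0.14 (adjusted p = 0.278), and neither passed the test.

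The other oxidative enzymes gave no call. PGLS encodes 6-phosphogluconolactonase, the step that precedes PGD. Its log2 level was 12.81, 12.74 and 12.62 in NCE and 12.96, 13.18 and 12.79 in CYGB+. The groups overlapped, since CYGB+ replicate 3 lay below NCE replicate 1, and the difference was 0.25 ± 0.16 (SE; 95% interval -0.12 to 0.63; adjusted p = 0.344). H6PD encodes the endoplasmic reticulum enzyme that carries out the opening oxidative steps in that compartment. Its probe was well above background on 0 of 9 NCE arrays and 0 of 6 CYGB+ arrays, so it was not well above background in either group and no difference is given.

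TALDO1 encodes transaldolase, which moves a dihydroxyacetone unit between sugar phosphates in the non-oxidative branch. Its log2 level was 14.90, 15.04 and 14.90 in NCE replicates 1 to 3 and 13.85, 14.20 and 14.28 in CYGB+ replicates 1 to 3. Every CYGB+ replicate lay below every NCE replicate, and replicate 1 was again the lowest of the CYGB+ group. Single arrays spanned 14.77 to 15.12 in NCE with a median of 14.95, and 13.45 to 14.38 in CYGB+ with a median of 14.22. The group means were 14.95 ± 0.08 in NCE and 14.11 ± 0.23 in CYGB+ (SD, n = 3 each). The signal was 1.79-fold higher in NCE, with a 95% interval of 1.36 to 2.34-fold, a log2 difference of -0.84 ± 0.17 (SE; limma adjusted p = 0.0215). Without the array that stood apart the difference was -0.70 ± 0.11 (adjusted p = 0.00686), and with that array's value left out the lowest CYGB+ array read 14.09. NCE replicate 1 read 14.95 and 14.85 on the first slide and 14.90 on the slide shared with CYGB+. In the array-level fit without slide the difference was -0.84 ± 0.15 (adjusted p = 0.000796). With slide added to that fit it was -0.81 ± 0.27 (adjusted p = 0.136) and did not pass the test. On the shared slide alone it was -0.79 ± 0.33, with 1 NCE replicate. The call was also lost on leaving out NCE replicate 1, 2 or 3 (adjusted p = 0.0605, 0.1 and 0.0757), with differences of -0.79 to -0.86.

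TKT encodes transketolase, which moves a ketol unit between the same sugar phosphates and works in series with transaldolase. Its log2 level was 13.73, 13.84 and 13.50 in NCE and 13.44, 14.20 and 13.89 in CYGB+. CYGB+ replicate 1 was the lowest of the 6 and the other CYGB+ replicates were the highest, so the groups overlapped. The difference was 0.15 ± 0.22 (SE; 95% interval -0.35 to 0.66; adjusted p = 0.681). Without the array that stood apart it was 0.39 ± 0.15 (adjusted p = 0.1), and without CYGB+ replicate 2 it was -0.02. TKTL1, a transketolase-like gene, had a probe that was well above background on 2 of 9 NCE arrays and 3 of 6 CYGB+ arrays, and it was not tested.

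RPIA and RPE convert ribulose 5-phosphate to ribose 5-phosphate and to xylulose 5-phosphate, which stand at the fork between nucleotide synthesis and the return to glycolysis. RPIA, the isomerase, was 11.43, 11.70 and 11.63 in NCE and 11.24, 11.38 and 11.48 in CYGB+. CYGB+ replicate 3 lay above NCE replicate 1 and the other CYGB+ replicates lay below all of NCE, and the difference was -0.22 ± 0.16 (SE; adjusted p = 0.386). RPE, the epimerase, was 9.68, 10.13 and 10.08 in NCE and 8.79, 9.54 and 9.73 in CYGB+. Only CYGB+ replicate 3 overlapped NCE, just above its replicate 1. The RPE difference was -0.61 ± 0.27 (SE; 95% interval -1.23 to 0.0036; adjusted p = 0.175), the greatest among the members that were not called. It rested in part on the array that stood apart, which read 7.91 against 9.50 to 9.88 for the other CYGB+ arrays, and without it the difference was -0.32 ± 0.15 (adjusted p = 0.183).

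PRPS1 encodes phosphoribosyl pyrophosphate synthetase, which draws ribose 5-phosphate out of the pathway. It was the only member with more than 1 probe. The brighter probe, A_23_P95764, read 12.58, 12.61 and 12.43 in NCE and 12.66, 12.86 and 12.87 in CYGB+. All 3 CYGB+ replicates lay above all 3 of NCE, with CYGB+ replicate 1 just above NCE replicate 2, and the difference of 0.26 ± 0.15 (SE; adjusted p = 0.293) did not pass the test. The other probe, A_23_P72961, read 10.00, 10.32 and 9.86 in NCE and 9.89, 10.52 and 10.46 in CYGB+, with overlapping groups and a difference of 0.23 ± 0.22 (SE; adjusted p = 0.526). Both probes thus gave a difference of the same sign and of like size, and neither was called. With PGD and TALDO1 this made 3 of 7 tested members whose replicates did not overlap, 2 of them higher and 1 lower in CYGB+. Among all genes tested the replicates did not overlap in 37.1%, with 18.7% higher and 18.4% lower, so the members' share was near that of the array.

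**Figure D2:**
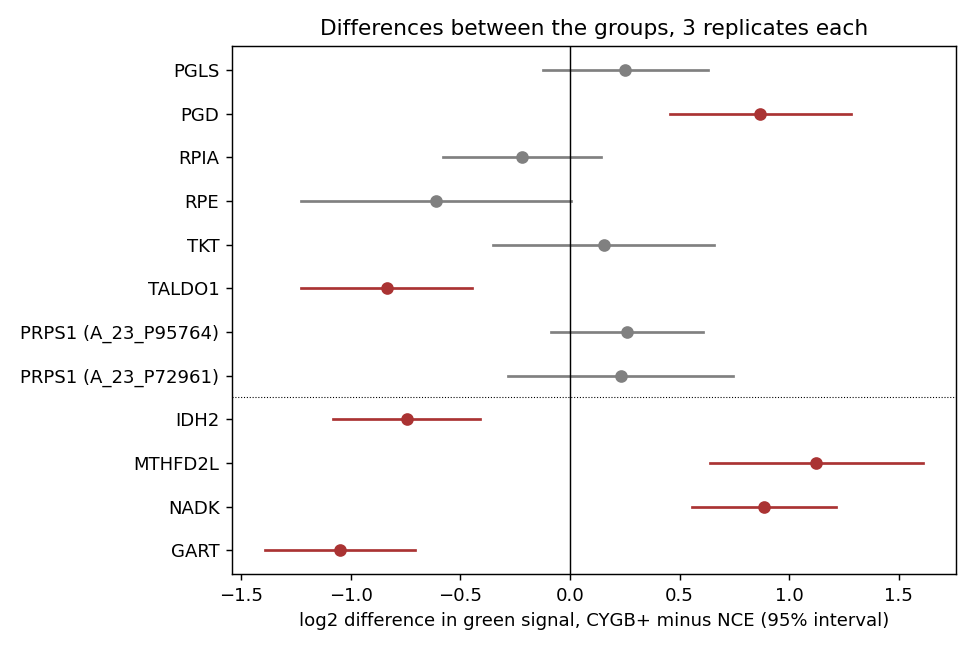
Log2 difference in green signal, CYGB+ minus NCE, with its 95% interval from limma (3 replicates per group), for the tested member probes above the dotted line and the called genes of 3 related lists below it. Red marks an adjusted p under 0.05: PGD at 0.87 and TALDO1 at -0.84 among the members, and MTHFD2L, NADK, IDH2 and GART among the others.

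A list of enzymes and regulatory proteins around the pathway gave no call in either direction, where 12.2% of all genes tested were called. This list held 17 genes, among them SHPK, RBKS, DERA, TIGAR, PRPS2, GPI and TPI1, of which 13 were tested, with a median log2 difference of 0.03 and a range of -0.49 to 0.57. PRPS2, the isoenzyme of PRPS1, was 8.59, 8.61 and 8.74 in NCE and 7.99, 8.41 and 8.35 in CYGB+, and IDNK, gluconokinase, which feeds 6-phosphogluconate to PGD, was 8.10, 7.78 and 8.20 against 8.84, 8.24 and 8.70. Among the 13 tested genes of the list these were the 2 whose groups did not overlap, and they are named after their values were seen. Across all genes tested the groups did not overlap in 37.1%. Neither passed the test, with differences of -0.40 ± 0.17 (adjusted p = 0.163) for PRPS2 and 0.57 ± 0.21 (adjusted p = 0.118) for IDNK.

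Of 16 genes for other enzymes that make NADPH or NADP, or that are related to these, 13 were tested. Of these 13, 2 were higher and 1 lower in CYGB+ (23.1%, against 12.2% of all genes tested), with a median difference of -0.14. The related lists were also chosen with earlier results of these data known, so such shares are descriptions. NADK encodes the cytosolic kinase that makes NADP from NAD. It was 8.96, 9.05 and 8.89 in NCE and 9.86, 9.79 and 9.91 in CYGB+, with no overlap and a tight spread in both groups. The NADK difference was 0.89 ± 0.14 (SE; adjusted p = 0.0095), and its other probes gave 1.28 (adjusted p = 0.0114) and 1.22 (adjusted p = 0.00756), so that all 3 were called higher. MTHFD2L, a mitochondrial enzyme of folate one-carbon metabolism, was 6.001, 6.02 and 6.14 in NCE and 6.77, 7.24 and 7.53 in CYGB+, a difference of 1.12 ± 0.21 (SE; adjusted p = 0.0167). IDH2, the mitochondrial NADP-dependent isocitrate dehydrogenase, was 10.00, 9.82 and 10.04 in NCE and 9.23, 9.22 and 9.17 in CYGB+, a difference of -0.75 ± 0.14 (SE; adjusted p = 0.0189). All 6 replicates of MTHFD2L and of IDH2 fell on their own group's side. The NADK call was lost without NCE replicate 3 (adjusted p = 0.0538), the MTHFD2L call without NCE replicate 1, 2 or 3 (0.0546, 0.0736 and 0.0544) and with slide as a covariate (0.78 ± 0.31, adjusted p = 0.229), and the IDH2 call without NCE replicate 1, 2 or 3 or CYGB+ replicate 3 (0.0662, 0.0619, 0.0924 and 0.0537). On the shared slide none of the 3 was called (adjusted p = 0.405 for NADK, 0.499 for MTHFD2L and 0.317 for IDH2). MTHFD2L was also not called with no filter on dim probes (0.0529) or with the methods' t-test (0.0821), and with normexp background correction its difference was 0.51 ± 0.13 (adjusted p = 0.0421). The 3 tested probes of MTHFD1L, another folate enzyme, disagreed in sign, at -0.27, -0.17 and 0.55, and none was called.

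Of 13 genes for enzymes that use phosphoribosyl pyrophosphate or follow it in purine synthesis, 12 were tested, and 1 was lower in CYGB+ and 0 higher (8.33%, against the same 12.2%), with a median difference of -0.13. The 11 that were not called, among them PPAT, HPRT1, APRT, UMPS and NAMPT, ranged from -0.77 to 0.52. GART encodes a trifunctional enzyme of purine synthesis. It was 12.41, 12.55 and 12.59 in NCE and 11.34, 11.55 and 11.50 in CYGB+, so that the groups stood well apart with a small spread in each. The signal was 2.07-fold higher in NCE, with a 95% interval of 1.63 to 2.63-fold, a log2 difference of -1.05 ± 0.15 (SE; adjusted p = 0.00675). A second GART probe, annotated with another transcript, gave -1.01 ± 0.22 (adjusted p = 0.0266). On the shared slide the first probe was at -1.05 ± 0.31 and was not called (adjusted p = 0.259). Over these 3 lists, fitting the replicate number as a block left 2 genes called higher and gave 4 called lower in place of 2.

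**Figure D3:**
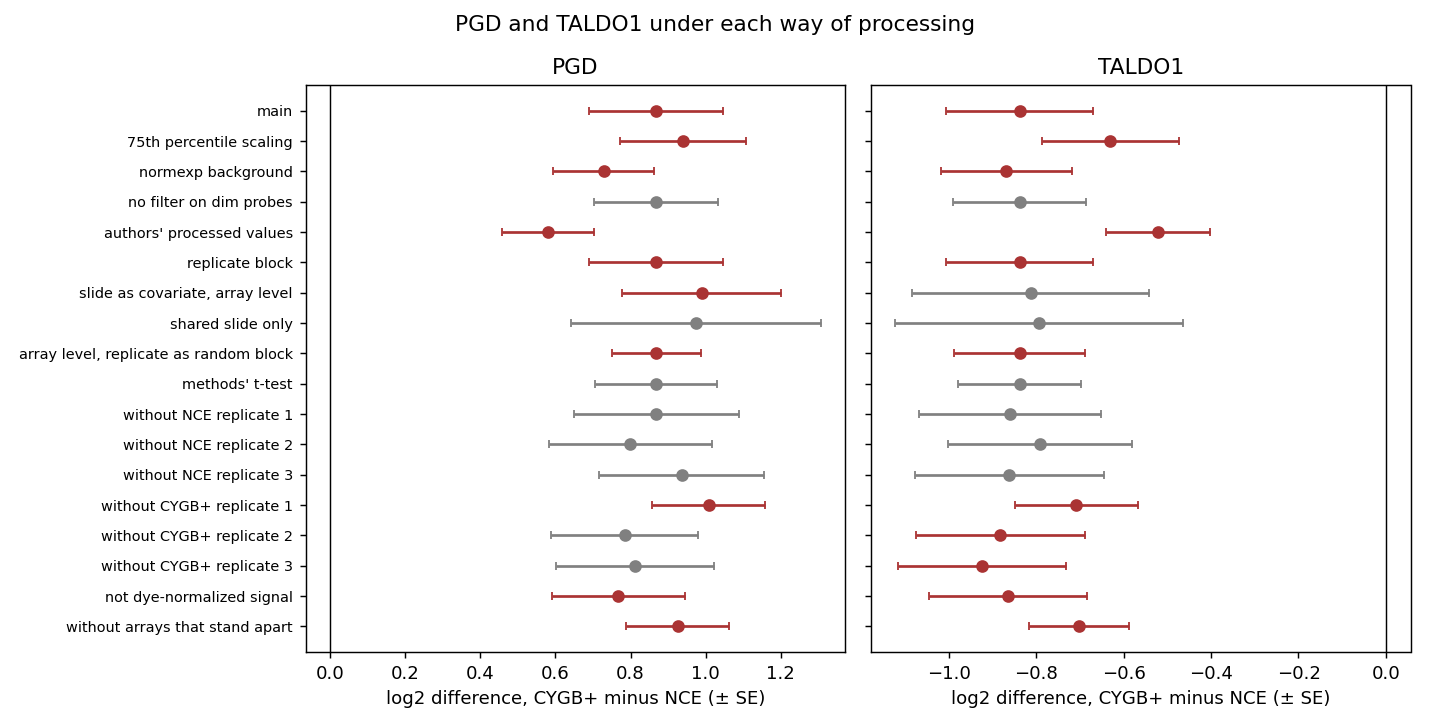
Log2 difference ± SE of PGD (left) and TALDO1 (right), CYGB+ minus NCE, under the reported processing (top row) and 17 alternatives, with red for an adjusted p under 0.05 and grey otherwise. Every PGD point lies above 0, between 0.58 and 1.01, and every TALDO1 point below it, between -0.92 and -0.52, while 9 and 10 of the 17 alternatives kept the call.

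Across the array 2307 of 19818 probes were called (11.6%), 1239 higher (6.25%) and 1068 lower (5.39%) in CYGB+, and 5746 had an unadjusted p under 0.05. With the replicate number as a block 3498 were called, 1809 higher and 1689 lower. The array-level fit called 4666, and 721 once slide was added to it as a covariate. Of these 721, 40.5% were higher, against 51.8% at array level without slide and 53.7% in the reported fit. On the slide that holds both groups 97 probes were called. PGD was the only member called with slide as a covariate, whereas TALDO1 and PRPS1 were also called in the array-level fit without slide. These array-level calls carry the limit given above, a single correlation between repeat arrays for all probes. The differences of the members that were not called in the reported fit were, with slide as a covariate, 0.19 for PGLS, -0.08 for RPIA, -0.42 for RPE, 0.39 for TKT and 0.21 for PRPS1.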

How the data were processed

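Total RNA (50 ng per labelling, extracted on 3 occasions) was hybridised by the authors to Agilent SurePrint G3 human arrays (design 028004) and read with Feature Extraction 10.7.3.1, per the file headers. The deposited intensity values used here are the green processed signals, which that software had background-subtracted and dye-normalised against the red channel of the same array. The labels give Cy3 (green) for every sample, whereas the study's methods place the control in cyanine 5. The labels and the methods thus differ on the dyes, and which RNA was in the red channel was not settled here. That channel entered no test of its own. The authors' deposited value table holds log2 quantile-normalised values, found here to be centred per probe on the CYGB+ arrays (column medians -0.16 to 0.18); it served as an alternative over 15031 matched probes.

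Control spots and outlier-flagged spots were dropped, spots averaged per probe, log2 values quantile-normalised as in the study's methods, and arrays averaged per replicate. A probe was tested where the scanner software set it well above background on every array of at least 1 group. CYGB+ and NCE (3 replicates each) were compared with limma 3.58.1 in R 4.3.3 (lmFit, eBayes; two-sided), with Benjamini-Hochberg adjustment over all 19818 probes tested, and called at an adjusted p under 0.05. A gene is represented by its brightest tested RefSeq probe. Of 27310 probes with a RefSeq accession 25422 matched a RefSeq symbol. The script was tested on simulated data. Same-numbered replicates deviated together (r = 0.24, 0.262 and 0.328, against -0.525 to 0.27 for other pairings) although 1 other pairing, at 0.27, exceeded 2 of these, and the labels do not state that a number marks an extraction occasion. The reported fit is unpaired, and the fit with the replicate number as a block is given where it changes a count. Alternatives were another scaling, normexp background correction (offset 50, on median signals, as the files hold no mean signals), no filter, the authors' values, slide, array-level fits, the methods' t-test and leaving out each replicate; signals without dye normalisation and leaving out the array that stood apart were chosen after seeing the data. Named genes were all members, CYGB, called genes of the 3 related lists and the 3 probes most correlated with the member of largest difference. The members and lists were chosen with earlier results of these data known. Promoter sequences are from RefSeq. The number of extractions, 3 per line, limits the precision.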

Additional observations from a re-analysis of the deposited data

Results flagged for a closer look

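Over 20 sets of arrays (each of 10 member probes in each group), 5 held an array far from the rest, where chance flags about 1 in 20. Of these, 4 were the first array of CYGB+ replicate 1, the array that stood apart from its group over all probes. RPE read 7.91 there, with the nearest CYGB+ array at 9.50. TALDO1 read 13.45 there, with the nearest at 14.09, and the TALDO1 difference without this array is given above. The dimmer PRPS1 probe read 9.51 there, with the nearest at 10.27. TKTL1 read 2.53 there, with the nearest at 3.96, at a level where its probe was not well above background on every array. The remaining array was the second of NCE replicate 3, on which TKT read 12.86 with the nearest NCE array at 13.50.

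The red channel, which no comparison here uses, held signal on every array: 50.6% of probes at the lowest and 57.1% at the highest were well above background. What RNA it came from is not given by the labels, so its values are given as ranges with no test. Before quantile normalisation, the log2 red signal of PGD spanned 9.63 to 11.28 on the 9 arrays labelled NCE and 9.81 to 11.42 on the 6 labelled CYGB+, and that of TALDO1 14.26 to 15.21 and 13.43 to 14.79. The red signal of COL1A2 spanned 5.98 to 10.32 and 5.22 to 7.32, whereas its green signal, 7.56 to 8.94 and 4.95 to 6.65, did not overlap between the labels.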

How the results depend on the processing

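PGD kept its direction under all 17 alternatives (0.58 to 1.01) and its call under 9, and TALDO1 under all 17 (-0.92 to -0.52) and 10, and the cause of the lost calls was not tested. The count of member genes called higher (1) became 0 with no filter on dim probes, 0 on the shared slide, 0 with the methods' t-test, 2 with the array-level fit with the replicate as a random block, where PRPS1 joined PGD (adjusted p = 0.0394), and 0 to 1 on leaving out a replicate. The count called lower (1) became 0 with no filter, 0 with slide as a covariate, 0 on the shared slide, 0 with the methods' t-test and 0 to 1 on leaving out a replicate. PGD had an adjusted p of 0.0564 with no filter and 0.0744 with the methods' t-test, and TALDO1 0.0506 and 0.0644. For the related lists, genes called higher (2) became 1 with no filter, 1 with the authors' processed values, 1 with slide as a covariate, 0 on the shared slide, 4 at array level, 1 with the methods' t-test and 0 to 2 on leaving out a replicate; genes called lower (2) became 4 with normexp, 4 with the replicate block, 0 on the shared slide, 4 at array level and 1 to 3 on leaving out a replicate. The replicate block changed no call of a member. Probes called (2307) became 1196 with no filter, 1444 with the authors' values, 3498 with the replicate block, 721 with slide as a covariate, 97 on the shared slide, 4666 at array level, 827 with the methods' t-test, 3996 without the array that stood apart and 654 to 2135 on leaving out a replicate. Among members and CYGB, the sign of a difference turned only for TKT on leaving out a replicate (-0.022 to 0.35, the lowest without CYGB+ replicate 2) and for CYGB with 75th percentile scaling (0.11), with the authors' values (0.032) and on leaving out a replicate (-0.30 to 0.23, above 0 without NCE replicate 2 or CYGB+ replicate 1). MTHFD2L had no matched row in the authors' value table. H6PD and TKTL1, at background, have no difference under the filter, which signal over background limits.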
